A study of Mus musculus with 8 samples.

Results

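The genes described here are those of the mouse major histocompatibility complex (MHC, named H2 in mice) and of the machinery that loads its molecules with antigen. They were taken by symbol: every gene whose name starts with H2 and a capital letter, with Cd74, Ciita, B2m, Tap1, Tap2, Tapbp, Psmb8, Psmb9, Psmb10 and Cd1d1, read from probe sets annotated with 1 gene only. Where a gene had several such probe sets, the brightest on average was kept. This gave 43 of 22180 genes: 29 of class I, 12 of class II and 2 others, Cd1d1 and H2-Ke6. A further 11 matching symbols, among them Cd74, H2-D1, H2-Q6, H2-Q7 and H2-T22, share their probe sets with another symbol and were not analysed here.

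Arrays measured RNA of lung club cells, a secretory cell type of the airways, in 4 pools of Atgl KO/cTg mice (16 mice) and 4 pools of wt/cTg mice (14 mice). All mice carried cTg, which the labels do not expand, and were 38 to 48 weeks old on a standard chow diet. Atgl, adipose triglyceride lipase, is the product of Pnpla2. Each array held RNA of 3 or 4 mice, so replicates differ as pools do and not as single mice. The labels give no strain, and H2 genes differ between mouse haplotypes. They name no gate or sort. The study describes its pools as 4 sets of both genotypes, but the labels do not say which pools form a set. Replicate numbers, given here in accession order, link no pools across genotypes.

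Class I molecules sit on nearly all nucleated cells and show peptides made in the cytosol to CD8 T cells. Their heavy chain pairs with beta-2 microglobulin, proteasomes cut the peptides, and the TAP transporter carries them into the endoplasmic reticulum. Class II molecules show peptides from the endosomal route to CD4 T cells. They are made mainly by dendritic cells, B cells and macrophages and, in the lung, also by alveolar type 2 cells, under the control of the coactivator Ciita.

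Pnpla2 read 6.70 to 7.16 in Atgl KO/cTg pools and 8.62 to 8.86 in wt/cTg pools (log2 signal). The club cell marker Scgb1a1 read 12.79 to 13.03 and 12.88 to 13.03, and the mean of 5 club cell markers was 12.32 to 12.54 and 12.42 to 12.48. Transcripts of other cells were well detected too: Ptprc, the common leukocyte marker, read 10.26 to 10.62 in Atgl KO/cTg pools and 10.29 to 10.65 in wt/cTg pools. Sftpc, an alveolar type 2 marker, read 12.5 to 12.57 in Atgl KO/cTg pools and 12.78 to 13.03 in wt/cTg pools, close to Scgb1a1. One pool stood furthest apart in sex-linked transcripts: wt/cTg replicate 4 read 3.75 for Xist, the X-inactivation RNA, where the others read 9.34 to 10.67, and 7.05 for the Y-linked Kdm5d, the highest value. Kdm5d read 6.40, 5.88, 5.74 and 6.51 in Atgl KO/cTg pools and 5.27, 5.51 and 5.41 in the other wt/cTg pools. Sex-linked signal was thus uneven between the genotypes outside that pool too. All values below are log2 signals as deposited, and a difference is Atgl KO/cTg minus wt/cTg on that scale. In bulk samples, fewer cells of a type and less RNA per cell cannot be told apart.

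The class II genes carry a shared promoter layout, an X box bound by the RFX complex followed by a Y box bound by NF-Y. The stretches below are from class II genes whose pools lay apart (H2-Aa, H2-DMb2) or overlapped (H2-Eb1, H2-DMb1), and from the class I genes H2-K1 and B2m. H2-DMb2, H2-DMb1 and H2-Eb1 hold matches to both spellings searched, and H2-Aa, H2-K1 and B2m hold a match to the Y box spelling alone. A box spelled otherwise would be missed, so no match does not mean that a gene lacks the box. Each is read 5′ to 3′ on the gene's strand and lies before the start annotated by RefSeq in GRCm38.p6. Capitals mark matches to GATTGG (Y box, CCAATC on the other strand) and AACNGATG (X box core).
H2-Aa: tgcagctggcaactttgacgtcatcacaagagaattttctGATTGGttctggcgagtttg
H2-DMb2: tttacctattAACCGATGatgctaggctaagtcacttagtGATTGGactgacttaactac
H2-DMb1: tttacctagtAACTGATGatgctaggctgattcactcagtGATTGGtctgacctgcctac
H2-Eb1: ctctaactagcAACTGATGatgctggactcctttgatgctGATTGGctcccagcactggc
H2-K1: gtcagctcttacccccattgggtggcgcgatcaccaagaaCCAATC
B2m: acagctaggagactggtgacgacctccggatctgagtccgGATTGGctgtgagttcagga
They lie at chr17:34287853-34287912 (minus strand) for H2-Aa, chr17:34145118-34145177 (plus) for H2-DMb2, chr17:34153089-34153148 (plus) for H2-DMb1, chr17:34305767-34305826 (plus) for H2-Eb1, chr17:34000334-34000379 (minus) for H2-K1 and chr2:122147593-122147652 (plus) for B2m.

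Promoter windows spanning the annotated start were found for 8 of 10 tested class II genes and 12 of 18 tested class I genes. On either strand, GATTGG was present in 8 of 8 class II and 6 of 12 class I genes, against 16.1% of all 32851 promoter windows. AACNGATG was present in 4 of 8 class II genes (H2-DMb1, H2-DMb2, H2-Eb1 and H2-Eb2) and 0 of 12 class I genes, against 2.32% of all windows. Both spellings were chosen with these sequences in view, so the counts are descriptions. They count exact spellings and not all X or Y boxes of either class. A gene was counted if any of its windows held the match, while the share of all windows counts single windows, so the units differ. In H2-DMb1 and H2-DMb2 the matches have the same spacing, 22 bases from the end of the X box core to the Y box, and in H2-Eb1 and H2-Eb2 the spacing is 21 bases. The interferon-stimulated response element, searched as TTTC, any 2 bases and TTTC, was found in 2 of 12 class I genes, B2m and H2-T23, and 0 of 8 class II genes, against 3.44% of all windows.

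Most class II genes had a lower mean in Atgl KO/cTg pools and most class I genes a higher one, by small differences of which none passed the test. Of 43 genes, 30 had a mean over the arrays above the level filter (5.18, the median of all probe sets) and were tested: 18 class I, 10 class II and both others. None passed limma's test over all 13112 genes (adjusted p 0.399 to 0.99, Benjamini-Hochberg), where 0.0991% of genes did (0.0839% lower and 0.0153% higher). In class II, 9 of 10 tested genes lay below 0, with a median difference of -0.17 (range -0.32 to 0.088). In class I, 6 of 18 lay below 0, with a median of 0.032 (range -0.42 to 0.22). Over all genes tested 52.2% lay below 0 and the median was -0.0073. At an unadjusted p under 0.05 there were 3 class II genes, all lower, 0 class I genes and, higher, H2-Ke6, against 7.95% of all genes, 4.56% lower and 3.39% higher. The 3 class II genes, H2-Ab1, H2-Aa and H2-DMb2, had all Atgl KO/cTg pools below all wt/cTg pools. Of all genes 4.35% had pools that did not overlap, 2.62% lower and 1.74% higher.

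H2-Ab1 and H2-Aa encode the beta and alpha chains of the class II molecule I-A. H2-Ab1 read 11.84, 11.83, 11.85 and 11.68 in Atgl KO/cTg pools and 11.91, 12.01, 12.10 and 12.06 in wt/cTg pools. The pools lay apart by 0.054, less than the SD within either genotype (0.08 in both). Its difference was -0.22 (SE 0.062, 95% interval -0.357 to -0.0835, limma adjusted p = 0.399), a level of 0.859 of the control. H2-Aa read 10.82, 10.94, 11.05 and 10.94 in Atgl KO/cTg pools and 11.05, 11.09, 11.33 and 11.17 in wt/cTg pools. Here the gap was 0.001, so the highest Atgl KO/cTg pool and the lowest wt/cTg pool were level. The difference was again -0.22 (SE 0.076, 95% interval -0.387 to -0.0529, limma adjusted p = 0.497). The exact permutation p of each was 0.0286, the smallest that 4 against 4 arrays can give.

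H2-Eb1 and H2-Eb2 encode beta chains of the E type. H2-Eb1 read 11.26, 11.34, 11.34 and 11.25 in Atgl KO/cTg pools and 11.31, 11.41, 11.60 and 11.38 in wt/cTg pools, with 1 wt/cTg pool inside the range of the other genotype. Its difference was -0.13 (SE 0.069, 95% interval -0.279 to 0.0229, limma adjusted p = 0.69), and -0.07 without wt/cTg replicate 3. H2-Eb2, near the level filter, read 5.86, 6.08, 5.52 and 5.46 in Atgl KO/cTg pools and 6.02, 6.07, 5.77 and 5.68 in wt/cTg pools, and the genotypes overlapped over most of their range. Its difference of -0.16 (limma adjusted p = 0.851) was -0.272 without Atgl KO/cTg replicate 2 and -0.066 without replicate 4. H2-Ea, the alpha chain partner and a transcribed pseudogene in the RefSeq annotation of C57BL/6J, read 3.66 to 4.14 and 3.71 to 4.00, below the level filter. So did the class II pseudogene H2-Pb, at 3.34 to 3.74 and 3.37 to 3.63.

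H2-DMa, H2-DMb1 and H2-DMb2 form the DM molecules, which remove the invariant chain fragment from class II and edit its peptides. H2-DMb2 had the largest class II difference. It read 9.13, 9.10, 8.80 and 8.97 in Atgl KO/cTg pools and 9.26, 9.35, 9.47 and 9.18 in wt/cTg pools, a gap of 0.057 between the genotypes. The difference was -0.32 (SE 0.094, 95% interval -0.524 to -0.109, limma adjusted p = 0.435, exact permutation p = 0.0286), a level of 0.803 of the control. H2-DMa read 10.37, 10.51, 10.49 and 10.31 in Atgl KO/cTg pools and 10.48, 10.52, 10.83 and 10.52 in wt/cTg pools. These overlapped, with a difference of -0.17 (SE 0.087, limma adjusted p = 0.66), which was -0.09 without wt/cTg replicate 3, the highest pool.

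H2-DMb1 was the class II gene above 0. It read 6.26, 6.53, 6.28 and 6.37 in Atgl KO/cTg pools and 6.38, 5.71, 6.68 and 6.31 in wt/cTg pools. The wt/cTg pools enclosed all Atgl KO/cTg pools, and the difference of 0.088 (95% interval -0.309 to 0.485) was -0.10 without wt/cTg replicate 2. H2-DMb1 and H2-DMb2 are closely related neighbours, and whether their probe sets cross-react is unknown, so values for the DM beta chains are uncertain.

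H2-Oa and H2-Ob form the DO molecule, an inhibitor of DM that is best known in B cells and thymus. H2-Oa read 8.23, 8.22, 8.19 and 7.85 in Atgl KO/cTg pools and 8.29, 8.13, 8.74 and 8.05 in wt/cTg pools. Atgl KO/cTg replicate 4 was low and wt/cTg replicate 3 high, and the difference of -0.18 (limma adjusted p = 0.814) was -0.089 and -0.032 without them. H2-Ob read 7.18, 6.84, 6.86 and 6.98 in Atgl KO/cTg pools and 7.08, 6.96, 7.12 and 7.05 in wt/cTg pools, with a difference of -0.088, which was -0.159 and -0.048 without Atgl KO/cTg replicates 1 and 2. Ciita, the coactivator that switches on class II genes, read 7.24, 7.80, 7.50 and 7.33 in Atgl KO/cTg pools and 7.65, 7.42, 7.79 and 7.66 in wt/cTg pools. It overlapped widely, with its highest value in an Atgl KO/cTg pool, and its difference was -0.16 (SE 0.13, 95% interval -0.451 to 0.127, limma adjusted p = 0.804). Without Atgl KO/cTg replicate 2, the highest pool, it was -0.272, and without replicate 1, the lowest, -0.087.

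**Figure D1:**
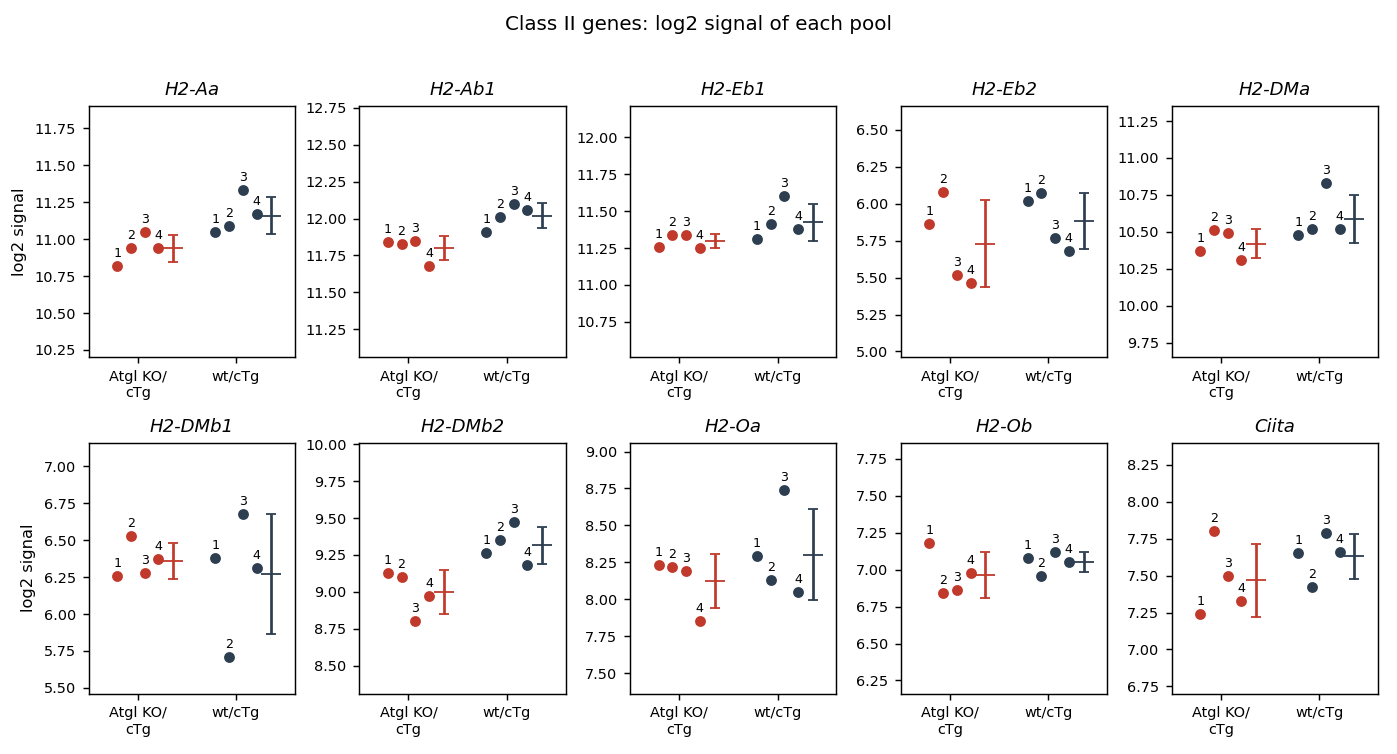
Log2 signal (vertical axis) of the 10 tested class II genes in each pool, Atgl KO/cTg on the left and wt/cTg on the right of each panel. Points are pools with their replicate numbers, and the bar is the mean with its SD (n = 4). Every panel spans the same log2 range. For H2-Aa, H2-Ab1 and H2-DMb2 no Atgl KO/cTg point lies above a wt/cTg point, and wt/cTg replicate 3 is the highest pool in 7 of 10 panels.

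The class I genes were read in the same way. H2-K1, a classical heavy chain, read 10.99, 11.12, 10.90 and 10.81 in Atgl KO/cTg pools and 11.10, 10.67, 11.07 and 10.83 in wt/cTg pools. The genotypes covered nearly the same range, and the difference was 0.039 (SE 0.10, 95% interval -0.187 to 0.265, limma adjusted p = 0.96). B2m, the light chain shared by all class I molecules, read 13.07, 13.05, 12.99 and 13.04 in Atgl KO/cTg pools and 13.10, 13.06, 13.12 and 12.98 in wt/cTg pools. Its difference was -0.03 (95% interval -0.135 to 0.0753, limma adjusted p = 0.923). The highest values on the arrays were 13.38 to 13.54, so B2m lay close to the top of the scale, where differences may be compressed.

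Psmb8, Psmb9 and Psmb10 are the catalytic subunits of the immunoproteasome, the form of the proteasome induced by interferon gamma. Psmb8 read 9.46, 9.84, 9.48 and 9.36 in Atgl KO/cTg pools and 9.56, 9.40, 9.58 and 9.17 in wt/cTg pools. Psmb9 read 10.80, 11.06, 10.73 and 10.69 in Atgl KO/cTg pools and 10.87, 10.68, 10.89 and 10.71 in wt/cTg pools. Psmb10 read 10.02, 10.46, 10.11 and 10.10 in Atgl KO/cTg pools and 10.43, 10.02, 10.12 and 10.02 in wt/cTg pools. All overlapped, with differences of 0.11, 0.034 and 0.025 (limma adjusted p 0.872 to 0.981).

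Tap1 and Tap2 form the peptide transporter, and Tapbp, tapasin, holds class I at it. Tap1 read 8.16, 8.75, 8.30 and 8.28 in Atgl KO/cTg pools and 8.65, 8.17, 8.69 and 7.66 in wt/cTg pools, with the widest spread of the class I partner genes. Tap2 read 6.59, 7.24, 6.61 and 6.75 in Atgl KO/cTg pools and 6.89, 6.62, 6.66 and 6.58 in wt/cTg pools. Tapbp read 8.95, 9.29, 8.82 and 8.91 in Atgl KO/cTg pools and 9.29, 8.91, 8.88 and 8.78 in wt/cTg pools. Their differences were 0.078, 0.11 and 0.031, none larger than the SD within Atgl KO/cTg pools (0.26, 0.30 and 0.21). Atgl KO/cTg replicate 2 was the highest of all 8 pools for 6 of the 7 partner genes, and wt/cTg replicate 4, the pool with low Xist, was the lowest for 5. Without Atgl KO/cTg replicate 2, Tap1, Tap2, Tapbp, Psmb9 and Psmb10 lay below 0 (-0.05, -0.043, -0.069, -0.046 and -0.072) and Psmb8 was at 0.004.

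**Figure D2:**
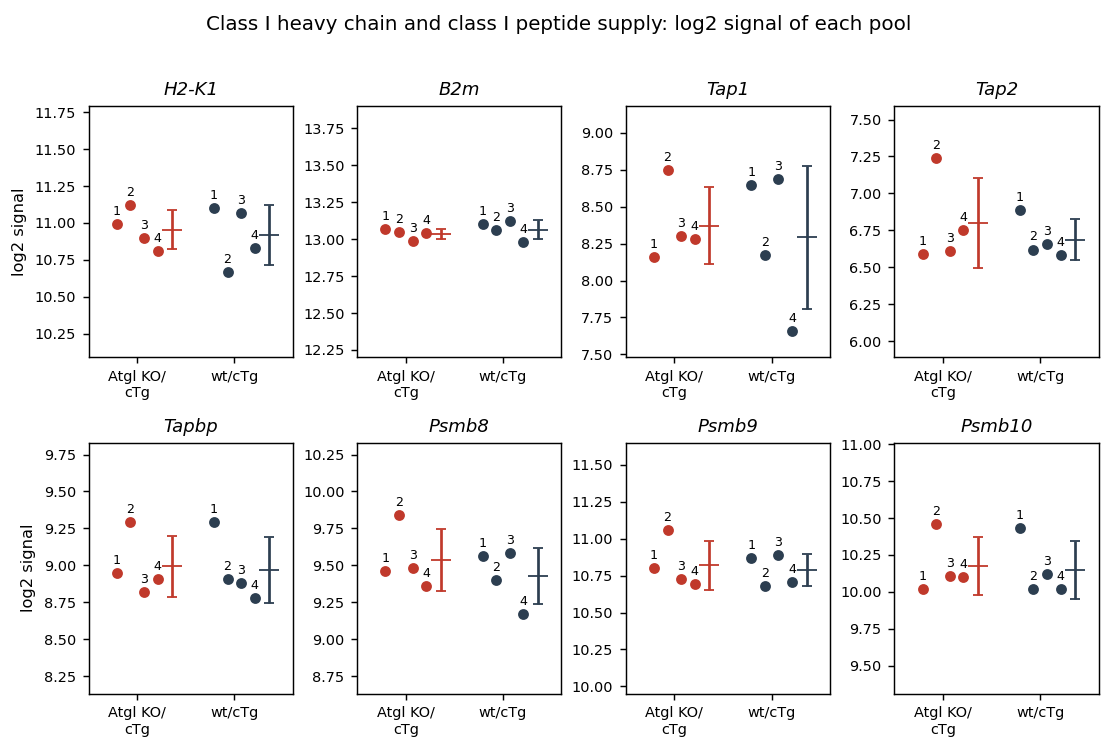
Log2 signal (vertical axis) of H2-K1, B2m and the class I peptide supply genes in each pool, Atgl KO/cTg on the left and wt/cTg on the right of each panel. Points are pools with their replicate numbers, bars are means with SD (n = 4), and every panel spans the same log2 range. The genotypes overlap in every panel. Replicate 2 is the highest Atgl KO/cTg point in every panel but B2m.

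The nonclassical class I genes H2-T23 and H2-M3 (SE 0.136 and 0.16) had wider intervals than H2-K1 and B2m, but narrower than Tap1 (SE 0.213). H2-T23, which encodes Qa-1, a ligand of natural killer cell receptors, read 8.02, 8.18, 7.80 and 7.96 in Atgl KO/cTg pools and 8.20, 7.90, 8.44 and 7.86 in wt/cTg pools, a difference of -0.11 (limma adjusted p = 0.886). H2-M3, which presents peptides with a formyl group, read 7.17, 7.68, 7.30 and 7.61 in Atgl KO/cTg pools and 7.43, 7.38, 7.68 and 6.99 in wt/cTg pools, a difference of 0.07 (limma adjusted p = 0.95). Neither separated the genotypes.

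H2-Q10, known as a soluble class I molecule made by the liver, had the lowest difference of all members, -0.42 (SE 0.22, 95% interval -0.901 to 0.0639, limma adjusted p = 0.676). It read 8.13, 7.25, 8.32 and 8.40 in Atgl KO/cTg pools and 8.36, 8.23, 8.68 and 8.51 in wt/cTg pools. Only Atgl KO/cTg replicate 2 was far below the rest, and without it the difference was -0.16. A second probe set of H2-Q10 gave 7.19, 6.09, 6.42 and 6.25 in Atgl KO/cTg pools and 6.24, 6.41, 6.38 and 6.37 in wt/cTg pools, a difference of 0.14 (exact permutation p = 0.7714). Atgl KO/cTg replicate 1 was far above the rest there, and without it the difference was -0.097. In each probe set 1 Atgl KO/cTg pool lay far from the rest, and it was not the same pool.

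Of the other tested heavy chain genes, H2-K2 lay highest, at 7.68, 7.75, 7.39 and 7.45 in Atgl KO/cTg pools and 7.39, 7.26, 7.46 and 7.28 in wt/cTg pools (0.22, SE 0.11, limma adjusted p = 0.655). RefSeq lists H2-K2, H2-Q5 and H2-T10 as transcribed pseudogenes. H2-Q1, H2-Q4, H2-Q5, H2-T10, H2-T24 and H2-M2 had differences of -0.18 to 0.14 with limma adjusted p of 0.877 or more. Heavy chain genes are near-identical copies, so signals of the H2-K, H2-Q and H2-T genes may be shared between them and are uncertain. Below the level filter were 11 class I genes, H2-Bl, H2-M1, H2-M5, H2-M9, H2-M11 and all 6 H2-M10 genes, with means over the arrays of 2.80 to 5.13. H2-M1 read 3.34, 3.41, 3.58 and 3.49 in Atgl KO/cTg pools and 3.78, 3.80, 3.77 and 3.66 in wt/cTg pools. It was the only one of these genes whose pools did not overlap, at a low level where signal over background is unknown. Among all genes tested 4.35% had pools that did not overlap, and the share among genes below the filter was not counted.

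Cd1d1 encodes CD1d, which presents lipids to natural killer T cells outside the MHC. It read 6.45, 6.47, 6.39 and 6.42 in Atgl KO/cTg pools, inside the wt/cTg range of 6.20, 6.15, 6.52 and 6.69, and differed by 0.04 (limma adjusted p = 0.97). H2-Ke6 lies in the MHC but encodes a hydroxysteroid dehydrogenase, not an antigen presenting molecule. It read 9.22, 9.36, 9.21 and 9.35 in Atgl KO/cTg pools and 9.08, 9.12, 9.0 and 9.21 in wt/cTg pools, a difference of 0.18 (SE 0.076, 95% interval 0.0101 to 0.343, limma unadjusted p = 0.0396, adjusted p = 0.60). Its genotypes met at 9.21.

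**Figure D3:**
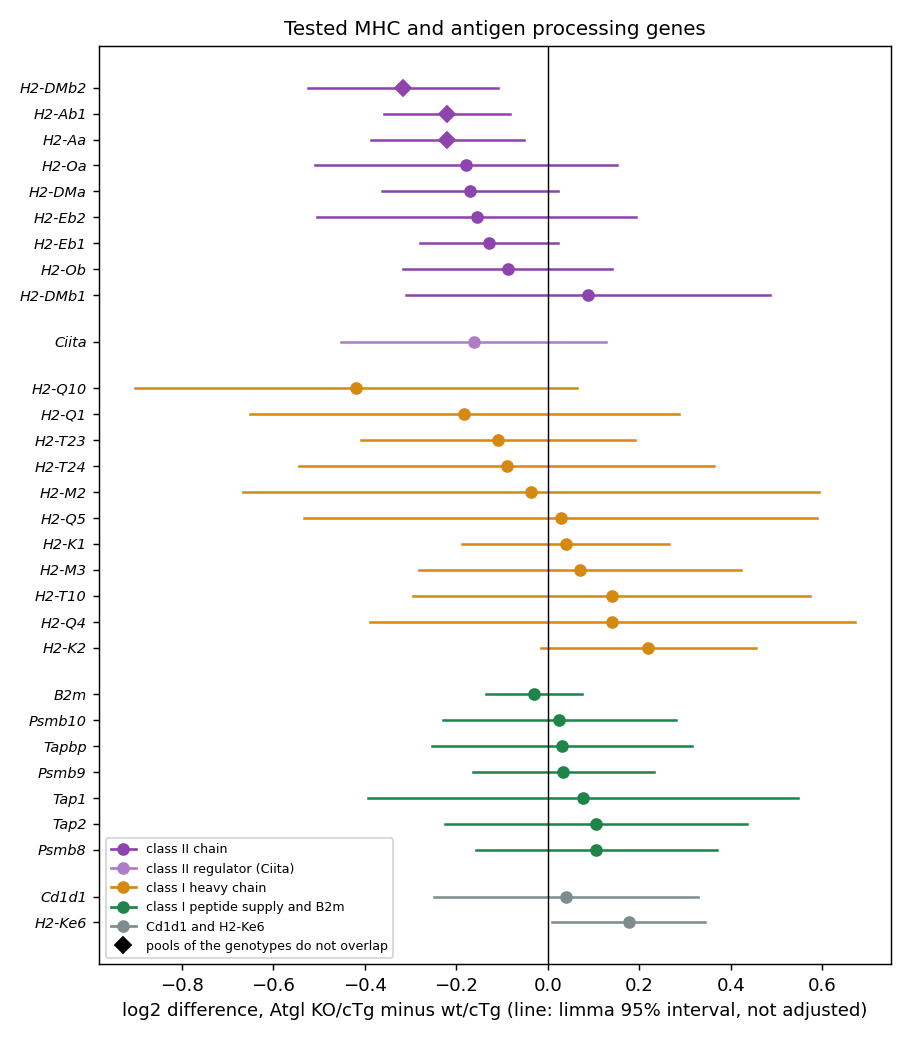
Log2 difference (horizontal axis, Atgl KO/cTg minus wt/cTg) of the 30 tested genes, grouped by role. Points are limma estimates from 4 pools per genotype, lines are 95% intervals not adjusted for the number of genes, and diamonds mark genes whose pools did not overlap. The 3 diamonds are H2-DMb2, H2-Ab1 and H2-Aa, while all class I intervals include 0.

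To set class II against class I within a pool, each gene was expressed relative to its own mean over the 8 pools and averaged over the tested genes of its class. The class II level was -0.069, 0.032, -0.099 and -0.174 in Atgl KO/cTg pools and 0.056, -0.019, 0.255 and 0.019 in wt/cTg pools. Atgl KO/cTg replicate 2 was above 2 of the wt/cTg pools, so the genotypes overlapped. The class I level was -0.057, 0.143, -0.06 and -0.009 in Atgl KO/cTg pools and 0.177, -0.145, 0.177 and -0.225 in wt/cTg pools. Thus wt/cTg pools lay at both ends of the class I range with the Atgl KO/cTg pools inside it.

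The class II level minus the class I level was -0.011, -0.112, -0.039 and -0.165 in Atgl KO/cTg pools and -0.121, 0.126, 0.079 and 0.244 in wt/cTg pools. All Atgl KO/cTg pools were below 0, and so was wt/cTg replicate 1. That pool lay below Atgl KO/cTg replicates 1, 2 and 3, so the genotypes overlapped. Genes were centred over the same pools, so the genotype means mirror each other and 0 marks only the average pool. The means were -0.082 ± 0.070 and 0.082 ± 0.152 (SD, n = 4 each). The difference of the class medians, -0.20, was -0.28 to -0.155 when each pool was left out. For class II the median came to -0.113 with Atgl KO/cTg replicate 4 left out and -0.10 with wt/cTg replicate 3 left out. For class I it turned negative, -0.044 with 14 of 18 genes below 0, when Atgl KO/cTg replicate 2 was left out. Leaving out replicate 2 or 4 of wt/cTg gave -0.024 and -0.044, each with 11 of 18 below 0.

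**Figure D4:**
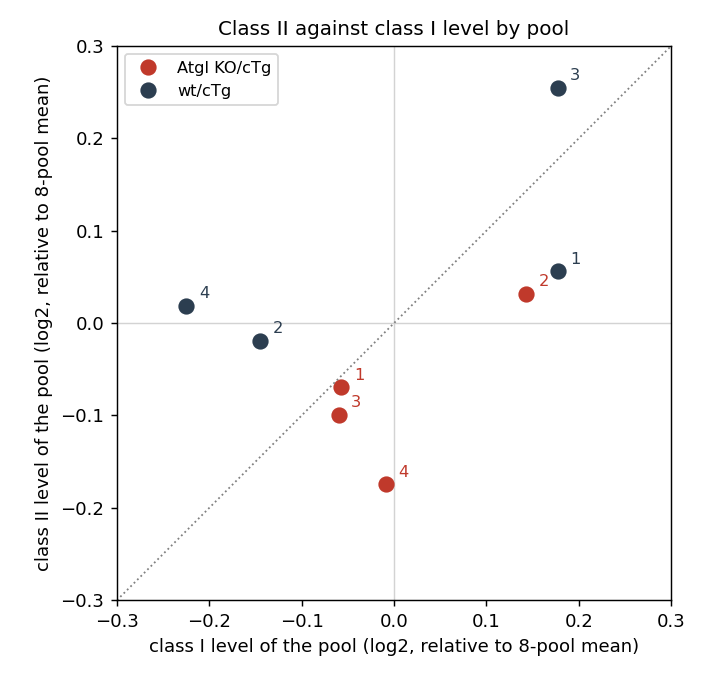
Class II level (vertical axis) against class I level (horizontal axis) of each pool, as the mean log2 deviation of the tested genes from their means over the 8 pools. Points are pools with replicate numbers, and the dotted line marks equal deviations of the classes, not equal signal. All Atgl KO/cTg pools lie below the line, replicate 1 just under it (-0.011), and 3 of 4 wt/cTg pools lie above it.

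The H2 genes lie together on chromosome 17. In the RefSeq gene order (GRCm38.p6) the class I peptide supply genes Psmb9, Tap1, Psmb8 and Tap2 lie side by side among class II genes, between H2-DMb1 and H2-Ob. These 4 differed by 0.034, 0.078, 0.11 and 0.11. H2-Oa, H2-DMa and H2-DMb2 on one side and H2-Ob, H2-Ab1, H2-Aa, H2-Eb1 and H2-Eb2 on the other all lay below 0. H2-DMb1, next to Psmb9, lay above 0 at 0.088. Without Atgl KO/cTg replicate 2, Psmb9, Tap1 and Tap2 lay below 0 (-0.046, -0.05 and -0.043) and Psmb8 was at 0.004. Whether the neighbours differ from each other was not tested.

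**Figure D5:**
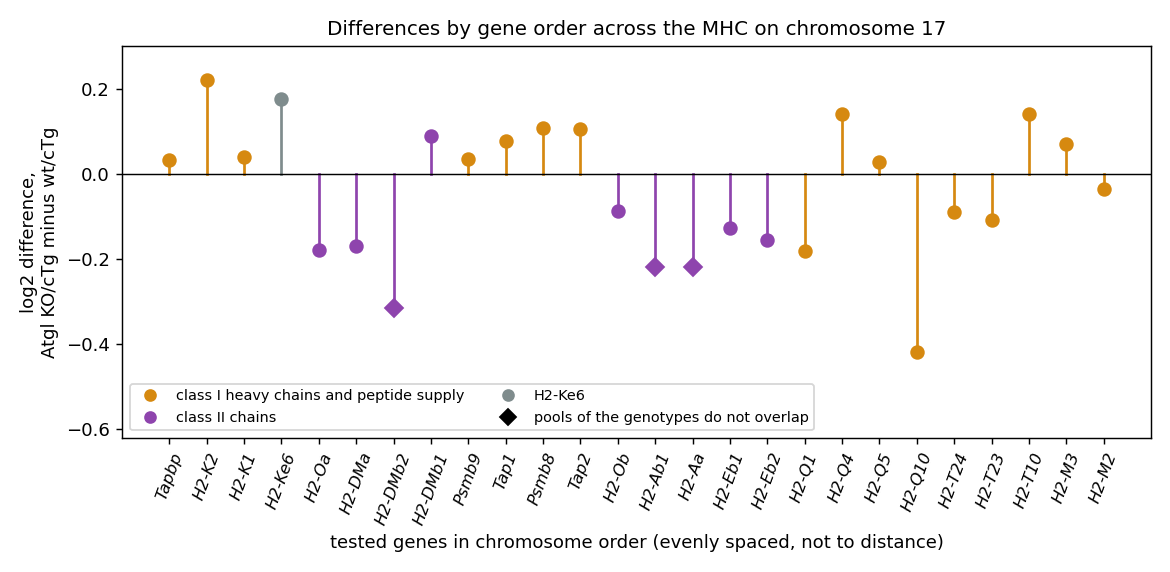
Log2 difference (vertical axis, Atgl KO/cTg minus wt/cTg) of the tested genes on chromosome 17 in RefSeq gene order, evenly spaced along the horizontal axis. Colours mark class and diamonds mark genes whose pools did not overlap. Class II genes other than H2-DMb1 lie below 0 on both sides of Psmb9, Tap1, Psmb8 and Tap2, which lie above 0.

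Other genes of the pathways did not pass limma's test. Among 15 tested regulators of MHC genes 7 lay below 0 and 8 above (median 0.0097). Irf8, a transcription factor of dendritic cells and B cells, averaged 9.28 ± 0.34 in Atgl KO/cTg pools and 9.64 ± 0.18 in wt/cTg pools (SD, n = 4; difference -0.36, limma adjusted p = 0.60). Rfx5, a subunit of the factor that binds the X box, read 6.58 ± 0.15 and 6.35 ± 0.19 (difference 0.23, limma adjusted p = 0.693). Of the class I peptide supply and loading genes outside the members, 6 of 11 lay below 0 (median -0.0089), with the chaperone Pdia3 at -0.17 and the proteasome subunit Psmb6 at 0.076. Of the class II peptide supply and turnover genes 5 of 9 lay below 0 (median -0.0075), and the lysosomal proteases Ctsd and Ctsb were at 0.093 and 0.081. Those 2 lists are close to the median of all genes.

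Class I-like genes outside the MHC split evenly, 3 of 6 below 0 (median -0.0039), with Azgp1 at 0.22 and Procr at 0.078. Of 7 costimulators 4 lay below 0 (median -0.095). Icosl, the ligand of the T cell costimulator ICOS, read 7.32 to 7.79 in Atgl KO/cTg pools and 7.81 to 8.09 in wt/cTg pools without overlap (difference -0.32, limma adjusted p = 0.524). Icam1, an adhesion molecule, had pools that met at 8.28 (difference -0.095, limma adjusted p = 0.798).

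Markers of cells known to make class II, and of other cells, were read beside it. All 7 alveolar type 2 markers lay below 0, by unlike amounts (median -0.41, range -1.525 to -0.132). Of these, 4 fell: Lamp3 (-1.525), Etv5 (-1.009), Slc34a2 (-1.012) and Sftpc (-0.406), with limma adjusted p of 0.0294 to 0.0477, where 0.0991% of all genes passed. In 17 refits all 7 stayed below 0, but the number that passed was 0 in 8 of them: without the variance trend, after quantile normalization, and when 1 pool was left out, except for replicate 2 of Atgl KO/cTg and replicate 1 of wt/cTg, where 4 passed. The mean log2 signal of that list was 10.45 to 10.71 in Atgl KO/cTg pools and 10.94 to 11.43 in wt/cTg pools. Of 7 dendritic cell markers 5 lay below 0 and none passed. They included Cd209a (7.03 ± 0.15 against 7.68 ± 0.25 in wt/cTg, limma adjusted p = 0.182) and Xcr1 (6.94 ± 0.17 against 7.47 ± 0.37, limma adjusted p = 0.446; SD, n = 4). Flt3, Zbtb46 and Batf3 were at -0.051 to -0.081, Itgax at 0.025 and Ccr7 at 0.289 (limma adjusted p = 0.646), and the list mean was 7.12 to 7.46 and 7.31 to 7.45. For macrophages 6 of 8 lay below 0, with a list mean of 8.60 to 8.96 and 8.74 to 8.80. For B cells 6 of 7 lay below 0, with a list mean of 7.44 to 7.56 and 7.35 to 7.86. For T cells, which make little class II in mice, 3 of 6 lay below 0, with a list mean of 7.56 to 7.87 and 7.27 to 7.99. None of the macrophage, B cell or T cell markers passed. Endothelial markers, from cells rich in class I, had 4 of 5 below 0 (list mean 8.51 to 9.18 and 8.93 to 9.71). Their median of -0.40 (range -0.497 to 0.019) was close to that of the alveolar type 2 markers, but none passed (limma adjusted p 0.66 to 0.983). The part of these cell types in the class II and class I values was not tested.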

How the data were processed

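Per the labels' protocols, 50 ng of RNA was amplified (NuGEN Ovation Pico WTA) and biotinylated. The authors deposited a table of log2 signal for 41345 probe sets on 8 arrays. That the scale is log2 follows from the values. Software, background correction and normalization: not given in the sources used here. Neither detection above background nor a scan batch could be examined. The number of arrays limits the precision, and p-values measure the spread between pools.

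Probe sets with 1 symbol (23521) gave 22180 genes, of which 13112 with a mean above 5.18 were tested with limma 3.58.1 in R 4.3.3 (lmFit, eBayes with a variance trend, two-sided, Benjamini-Hochberg over all genes tested, threshold 0.05). Single genes also had an exact two-sided permutation test over 70 arrangements. Classes had no test of their own. The steps were tested on simulated data. Differences planted there were larger than that of any tested MHC gene, so finding differences of the size reported here was not tested. Members and lists were chosen with earlier results of these data known. Values of every pool are given for members with genotypes that do not overlap, for the main class I and class II genes fixed by name, and, named after their values were seen, for H2-Eb2, H2-K2, H2-Q10, H2-T23, H2-M3 and H2-Ke6. Of each list other than the cell type markers, genes past the threshold and up to 2 others with the smallest p are named. Differences of alveolar type 2 markers are named where they passed, and macrophage, B cell, T cell and endothelial markers are given as lists. The dendritic cell markers other than Cd209a and Xcr1 were named after their values were seen. Promoter sequences are from RefSeq (GRCm38.p6). Figures were drawn with matplotlib 3.10.9.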

Additional observations from a re-analysis of the deposited data

Results flagged for a closer look

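In 3 of 60 groups of 4 pools, 1 pool lay far from the other 3 relative to the range of the group, and chance gives about 1 in 20 such groups. H2-Ab1 read 11.68 in Atgl KO/cTg replicate 4, where the other Atgl KO/cTg pools read 11.83 to 11.85. H2-Oa read 7.85 in the same pool, against 8.19 to 8.23. H2-DMa read 10.83 in wt/cTg replicate 3, where the other wt/cTg pools read 10.48 to 10.52. All 3 are class II genes, and in each the outlying pool widens the difference between genotypes: without it the differences were -0.181 for H2-Ab1, -0.089 for H2-Oa and -0.09 for H2-DMa.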

How the results depend on the processing

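No MHC gene passed limma's threshold in any of 17 refits. The count over all genes was 13 as reported, 7 with all genes kept or with mouse age in the model, 1 without the variance trend or after quantile normalization, 23 with array weights, and 1 to 25 when each pool was left out. The cause was not tested. The class II median stayed below 0 (-0.217 to -0.10), and 9 or 10 of 10 class II genes lay below 0, counts added after the data were seen. Genes lower without overlap numbered 3 in class II (2.62% of all genes), 5 without wt/cTg replicate 1 (3.83% of all genes) and 3 without any other single pool (3.24% to 6.66% of all genes). The class I median ran from -0.044 to 0.109, and 4 to 14 of 18 class I genes lay below 0 when each pool was left out. Directions held in all refits for 9 of 10 class II genes. With other probe sets counted too, directions held for 4 of 18 class I genes, and H2-Q10 turned only with its other probe set. Near 0, H2-Q5 turned with median centring (-0.002), array weights (-0.068) and the sex-linked covariate (-0.041). Psmb10 turned with median centring (-0.005), Tapbp with array weights (-0.008) and Tap1 with the sex-linked covariate (-0.014). Other probe sets gave the other sign for H2-Q10 (0.142, but -0.097 without Atgl KO/cTg replicate 1, added after the data were seen) and H2-Q4 (-0.043). When each pool was left out, Cd1d1 ran from -0.041 to 0.138, H2-DMb1 from -0.099 to 0.225, H2-K1 from -0.043 to 0.10, H2-M2 from -0.237 to 0.167, H2-M3 from -0.057 to 0.175, H2-Q4 from -0.087 to 0.326, H2-Q5 from -0.167 to 0.271 and H2-T10 from -0.044 to 0.259. H2-T23 ran from -0.19 to 0.003, H2-T24 from -0.221 to 0.09, Psmb9 from -0.046 to 0.079, Psmb10 from -0.072 to 0.119, Tap1 from -0.133 to 0.21, Tap2 from -0.043 to 0.174 and Tapbp from -0.069 to 0.139. No paired analysis was run, because the labels do not say which pools form the 4 sets of both genotypes that the study describes. Mouse numbers in the pool titles run close together across genotypes for some pools but not for all, so pairing by them would be a guess. Signal over background could not be measured here, which limits the genes near or below the level filter.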
